A study of Homo sapiens with 24 samples.

Results

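Pancreatic progenitors derived from human pluripotent stem cells were profiled by m6A-seq in 2 protocols, and the peak lists of both were compared here. The members were the 29083 peaks of the PP list and the 43312 peaks of the wild-type PP (WT PP) list, together 72395 of the 228472 peaks in the 6 lists of the series. They were chosen by population and batch and not by any measured value. In total, 8 of the 24 libraries stood behind them, 2 immunoprecipitated (IP) and 2 input libraries for each population.

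All libraries came from MEL1 INSGFP/W, a human embryonic stem cell line with a GFP reporter at the insulin gene (INS), differentiated stepwise through definitive endoderm (DE). The medium carried retinoic acid, KGF, EGF, the BMP receptor inhibitor LDN-193189 and the Hedgehog inhibitor GDC-0449 at different steps. PP belonged to the first batch together with hPSC, DE and human islet-like organoids (hILO). There, mRNA was enriched, fragmented and precipitated with a SYSY antibody against m6A, and Illumina libraries were made. WT PP belonged to the second batch, labelled WT for genotype, beside progenitors labelled A5_KO that lack the m6A demethylase ALKBH5 (A5-KO PP). In that batch, fragments of total RNA were precipitated with a Millipore antibody, rRNA was removed from the input alone, and a stranded total RNA kit was used. Antibody, RNA, kit and experiment therefore changed together, and their parts in any difference between the lists cannot be told apart. Each population has 1 list with 1 value per peak, so no spread between replicates was available and no test between protocols was made. Shares are given with Wilson 95% intervals, which cover counting error only. Reads inside peaks summed to 30944774 in the IP and 6987612 in the input for PP, and to 59982995 and 19034654 for WT PP, where 11.5% of rows held no input read against 0.103% in PP.

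N6-methyladenosine (m6A) is a methyl mark placed on adenosines inside RNA molecules, mRNA above all. A complex around METTL3 and METTL14 writes it on the consensus DRACH, in which D stands for any base but C, R for a purine and H for any base but G. FTO and ALKBH5 act as its erasers and YTH proteins as its readers. It is known to be dense near stop codons, in 3′ untranslated regions (3UTRs) and in long internal exons. In m6A-seq, reads of the IP pile up over input reads where fragments were methylated, so a peak needs both the RNA and the modification, and a gene without a peak may still be expressed.

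The deposited values of single peaks had a limit that precedes all results. Each row gave a position together with read counts, a log2 enrichment and a p-value, but the counts did not follow the positions well. Between consecutively numbered peaks of the same gene, the input counts correlated across peaks with a Spearman coefficient of 0.39 in PP (12654 pairs) and 0.35 in WT PP (19410 pairs). Blocks of 1000 peak numbers were then compared after moving the count columns by up to 40 rows against the positions. Here the Pearson correlation of log2 input counts with 1 added was used. In PP, the correlation was best without a move in 6 of 31 blocks, and best at a move of 1 to 12 rows in one direction in 21. In those 21 blocks its median was 0.50 after the move and 0.34 before it. The move was picked as the best one, so the first value is the larger by that choice. The other 4 blocks were best at some other move. In WT PP, 6 of 46 blocks were best without a move, 21 at such a move and 19 at some other move, so a small move in one direction describes WT PP less completely than PP. Input counts of PP and WT PP peaks that covered each other by at least 80% correlated at 0.14 (2633 pairs), against 0.46 (8974 pairs) between hPSC and DE. Within a batch, the same coefficient was 0.26 (6599 pairs) between PP and DE and 0.32 (9440 pairs) between WT PP and A5-KO PP. Counts, enrichments and p-values of single peaks may thus belong to a peak some rows away, and no level of a gene is given from them below. Positions, gene identifiers, transcript regions and sequence motifs do not use those columns. Since lists were limited by the adjusted p, single peaks near that limit may have been kept or dropped with values of another row. Of the peak numbers, 4.23% were missing from PP and 9.51% from WT PP.

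Sequences that both protocols marked on progenitor genes are shown first, because they hold the m6A signal found by both on genes that define these cells. Among the progenitor transcription factor genes, 15 had a shared peak on coding sequence with at least 20 input reads on the row of each list. That minimum, and the choice of 1 peak per gene by enrichment, read the columns with the limit above, so which genes and peaks are in this set, and the counts over it, rest on them, whereas the position of each stretch does not. The part that lay in both peaks and in the coding sequence was read from GRCh38 on the strand of the gene, up to 300 nt. DRACH matches are in capitals. Of the 15 stretches, 14 held at least 1 DRACH, 9 held the core GGAC and 12 came from PP peaks that A5-KO PP peaks covered too. A match of letters describes the stretch and is not a mapped site. Over all shared PP peaks, which are whole peaks and not stretches, 93.1% held a DRACH and 58.0% a GGAC, and 80.2% were covered in A5-KO PP, so these counts are near those of shared peaks in general.

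The stretches of 7 genes follow, 5′ to 3′. PDX1, the master regulator of pancreas formation, lay at chr13:27924336-27924510 (+ strand), with 6 DRACH matches. NKX6-1, which marks progenitors able to form beta cells, lay at chr4:84493462-84493511 (- strand), with 2 matches, in a stretch not covered by an A5-KO PP peak. SOX9, which maintains the progenitor pool, lay at chr17:72124087-72124386 (+ strand), and RFX6, needed for endocrine differentiation, lay at chr6:116927218-116927517 (+ strand). FOXA2, a pioneer factor of endoderm, lay at chr20:22581850-22582104 (- strand), and ONECUT1, an activator of early pancreatic genes, at chr15:52757555-52757752 (- strand). Both of these stretches ran to the stop codon, which is included. The stretch of MNX1, needed for dorsal pancreas formation, lay at chr7:157010275-157010350 (- strand) and began at the start codon.
PDX1: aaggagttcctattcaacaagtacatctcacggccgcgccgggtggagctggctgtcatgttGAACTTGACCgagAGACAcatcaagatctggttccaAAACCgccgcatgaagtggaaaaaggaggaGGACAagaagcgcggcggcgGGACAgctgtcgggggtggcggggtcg
NKX6-1: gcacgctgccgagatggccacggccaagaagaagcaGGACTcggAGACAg
SOX9: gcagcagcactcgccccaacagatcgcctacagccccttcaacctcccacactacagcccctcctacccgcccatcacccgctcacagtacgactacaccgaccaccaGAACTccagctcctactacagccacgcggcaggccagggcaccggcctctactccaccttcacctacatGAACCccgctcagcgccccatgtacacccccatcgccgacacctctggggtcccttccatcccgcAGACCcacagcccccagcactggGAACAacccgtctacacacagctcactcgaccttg
RFX6: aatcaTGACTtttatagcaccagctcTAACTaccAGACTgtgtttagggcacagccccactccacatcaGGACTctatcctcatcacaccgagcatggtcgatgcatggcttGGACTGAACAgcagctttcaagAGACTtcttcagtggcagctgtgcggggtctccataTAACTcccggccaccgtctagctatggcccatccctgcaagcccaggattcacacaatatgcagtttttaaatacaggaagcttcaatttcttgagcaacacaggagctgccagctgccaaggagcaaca
FOXA2: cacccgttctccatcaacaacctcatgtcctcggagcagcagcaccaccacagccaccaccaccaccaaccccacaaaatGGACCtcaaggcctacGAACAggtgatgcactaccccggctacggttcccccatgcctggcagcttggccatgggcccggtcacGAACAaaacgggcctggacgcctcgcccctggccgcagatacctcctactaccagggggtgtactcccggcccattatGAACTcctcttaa
ONECUT1: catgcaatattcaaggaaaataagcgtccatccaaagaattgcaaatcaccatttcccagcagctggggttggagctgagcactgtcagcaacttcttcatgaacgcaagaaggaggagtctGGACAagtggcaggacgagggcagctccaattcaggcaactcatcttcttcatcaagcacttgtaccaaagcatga
MNX1: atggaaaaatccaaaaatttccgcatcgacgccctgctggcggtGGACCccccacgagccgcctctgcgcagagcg

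The first question was which genes carried m6A in both protocols. PP peaks fell on 11813 genes and WT PP peaks on 14965. Of 16873 genes with a peak in either list, 9905 (58.7%) had one in both, 1908 (11.3%) in PP only and 5060 (30%) in WT PP only. Genes of both lists were 83.8% of PP genes and 66.2% of WT PP genes. A stricter count asked for the same place on the transcript. A PP peak was called shared when WT PP peaks covered over 50% of its exonic length on the same strand, and 7940 genes (47.1%) had such a peak. Among 12700 protein-coding genes, 8669 (68.3%) had a peak in both lists and 7050 (55.5%) a shared peak.

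Classes of genes were found by both protocols to different extents. Of 3001 lncRNA genes, 942 (31.4%, 29.8% to 33.1%) were in both lists, 672 in PP only, which is 22.4% (20.9% to 23.9%), and 1387 in WT PP only (46.2%). Pseudogenes gave 253 in both, 270 in PP only and 476 in WT PP only. lncRNAs made up 35.2% of PP-only genes, 27.4% of WT PP-only genes and 9.51% of genes in both. Replication-dependent histone genes, whose mRNAs end in a stem-loop in place of a poly(A) tail, gave 9 in both lists, 4 in PP only and 12 in WT PP only, of 25. Small RNA genes were the most one-sided class, with 48 of 53 in WT PP only (90.6%, 79.7% to 95.9%), 4 in PP only and 1 in both. For mitochondrial genes, the numbers were 8, 5 and 4 of 17.

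**Figure D1:**
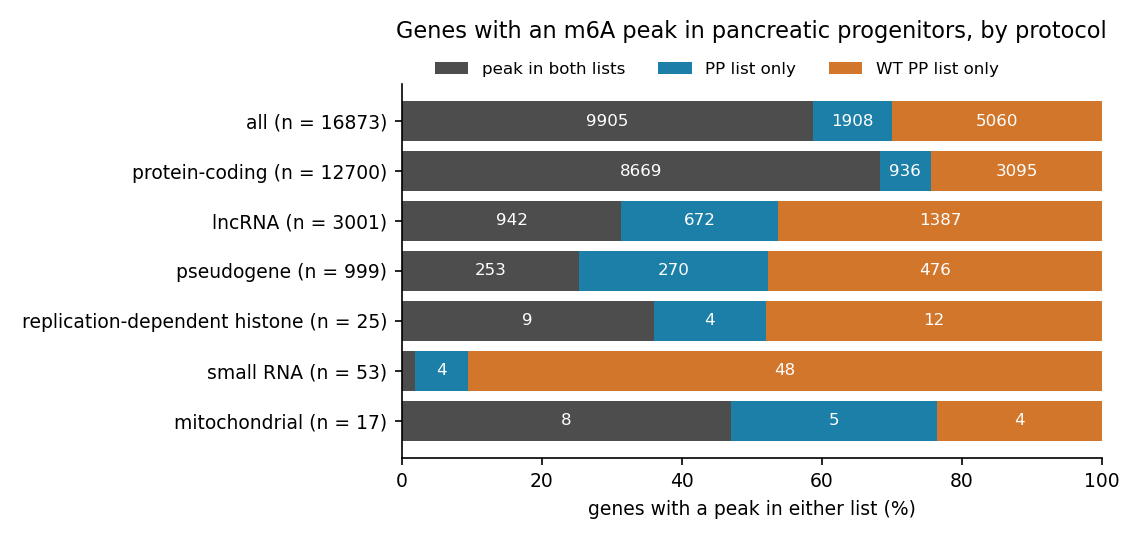
Genes with a peak in either list, by gene class, as the percent found in both lists, in PP only and in WT PP only; the horizontal axis runs from 0 to 100%. Protein-coding genes were found by both protocols in 68.3% of cases and small RNA genes in WT PP only in 90.6%.

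The number of peaks on a gene went with its detection. Of 5004 genes with 1 PP peak, 70.3% had a WT PP peak, against 92.4% of 5396 genes with 2 to 4 and 99.0% of 1267 genes with 5 to 9. All 146 genes with 10 or more PP peaks were in both lists. In the other direction, 44.8% of genes with 1 WT PP peak and 94.6% of 294 genes with 10 or more had a PP peak. Genes found in PP only had 1 peak in 77.8% of cases and WT PP-only genes in 56.1%.

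Genes with the most shared PP peaks were large. VCAN, a matrix proteoglycan, had 23 of its 24 PP peaks shared, and WT PP had 11 peaks on it. AHNAK, a giant scaffold protein gene, had 20 of 20 shared, DST, a cytolinker gene, 20 of 21, and FAT1, an atypical cadherin gene, 17 of 19. In each of these 4 genes the other 4 lists held between 9 and 41 peaks.

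In the second step, single peaks were compared. PP peaks covered 6.94 Mb of exons and WT PP peaks 13.5 Mb, of which 4.48 Mb lay in both, 64.6% of the PP and 33.3% of the WT PP length. By the rule above 16826 PP peaks passed, which is 57.9% (57.3% to 58.4%) of them. The same rule read from the other side passed 9712 WT PP peaks, 22.4% (22.0% to 22.8%). Both lists had a median width of 175 nt, but 18.7% of WT PP and 10.3% of PP peaks were over 400 nt. Among the shared pairs WT PP peaks were wider in 85.1%, with medians of 475 and 195 nt, and 2547 of the 13213 WT PP partners held several PP peaks, up to 11. When over 50% of both peaks had to be covered, 24.3% of PP and 16.4% of WT PP peaks were shared. With any overlap of at least 1 nt, the shares were 63.3% and 35.5%. Settings that read the columns with the limit above gave other shares. They were 36.9% and 16.4% for p below 1e-05, and 52.6% and 12.9% for a ratio of at least 3.

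Sharing differed with width and base composition. PP peaks of 50 nt or less were shared in 41.6% of cases and those over 400 and up to 800 nt in 83.6%, and the same classes of WT PP peaks in 9.43% and 44.3%. PP peaks with 35% to 40% GC were shared in 67.6% of cases and those over 70% GC in 36.3% (32.7% to 40.1%). WT PP peaks were shared in 29.7% of cases at 40% to 45% GC and in 5.55% (4.66% to 6.60%) over 70% GC. Peaks found by one protocol were richer in GC, with medians of 50.0% in PP and 49.2% in WT PP against 45.3% and 45.5% in shared peaks.

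**Figure D2:**
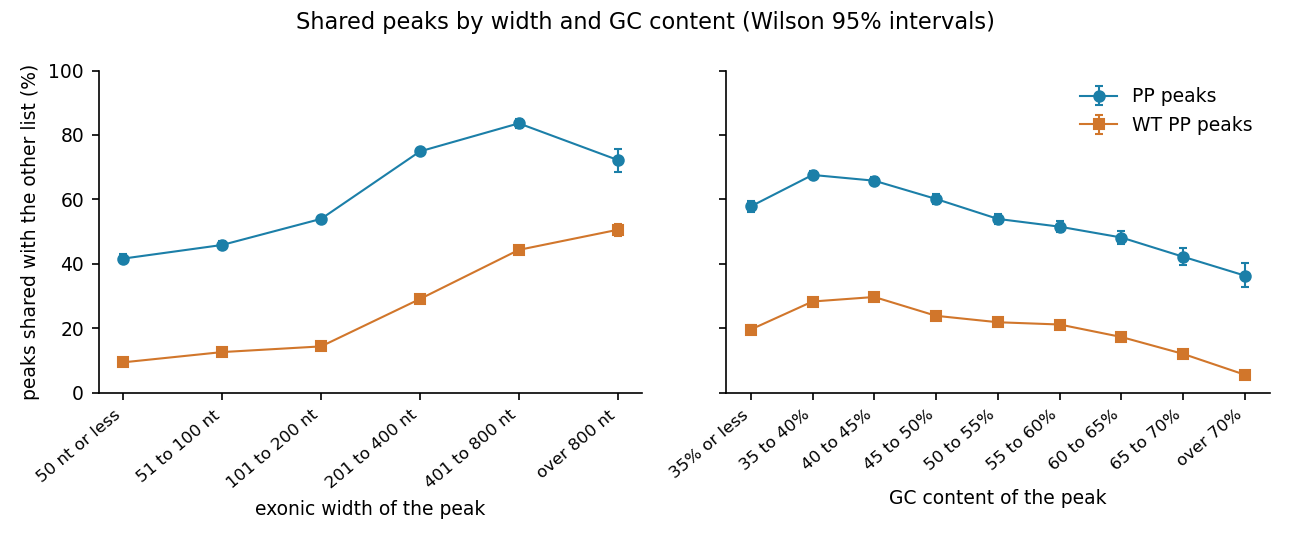
Percent of peaks shared with the other list by exonic width of the peak (left) and by its GC content (right), for PP and WT PP peaks, with Wilson 95% intervals. In both lists sharing was lowest in the narrowest peaks and in peaks of over 70% GC, 36.3% in PP and 5.55% in WT PP.

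Transcript position was then read on the longest coding isoform, by the midpoint of each peak. Shared PP peaks lay in the 5UTR in 3.75%, in the coding sequence (CDS) in 53.1% and in the 3UTR in 43.2%. PP-only peaks lay there in 9.89%, 60.7% and 29.4%. Shared WT PP peaks gave 4.42%, 53.7% and 41.9%, and WT PP-only peaks 7.93%, 47.2% and 44.8%. The 3UTR thus held about the same share of shared peaks whichever list was read, 43.2% and 41.9%, but 29.4% of PP-only and 44.8% of WT PP-only peaks.

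Around the stop codon shared peaks were the denser ones. Within 200 nt of it lay 23.8% of shared and 13.7% of PP-only peaks, and 25.6% of shared and 16.7% of WT PP-only peaks. Near the transcript start the order was the opposite. Within 200 nt of the start lay 2.53% of shared and 10.9% of PP-only peaks, and 3.67% of shared and 5.57% of WT PP-only peaks. Of PP peaks near the stop codon 76.0% were shared with WT PP, and 29.7% of those near the start.

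The exon that held a peak separated shared from unshared PP peaks more than the region did. PP peaks in internal exons of at least 400 nt were shared in 80.8% of cases (79.5% to 82.0%, n = 3748) and those in last exons in 75.1% (74.3% to 75.9%, n = 11585). In internal exons under 400 nt, 27.3% were shared (26.0% to 28.7%, n = 3978), and in first exons 41.8% (39.5% to 44.1%, n = 1774). Peaks of single-exon isoforms were shared in 71.5%. Short internal exons held 7.80% of shared PP peaks and 37.7% of PP-only peaks. The order was the same among PP peaks of 100 to 200 nt, at 77.4%, 71.6%, 26.3% and 39.8%. Of the peaks on short internal exons, 69.0% spanned several exons, against 17.1% on long internal and 4.83% on last exons. PP peaks of any position that spanned several exons were shared in 36.7% of cases and those in 1 exon in 64.3%.

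For WT PP peaks the contrast between exons was small and depended on width. They were shared with PP in 16.5% of cases in first exons, 20.0% in short internal, 30.8% in long internal and 25.8% in last exons. Among WT PP peaks of 100 to 200 nt the values were 13.5%, 18.4%, 14.5% and 11.8%, so the order of exon classes was not kept.

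The lists of the first batch and A5-KO PP were used to see where these peaks recurred. PP peaks in short internal exons were found again in 24.2% of cases in A5-KO PP, 45.3% in hPSC, 44.5% in DE and 55.0% in hILO, beside 27.3% in WT PP. The 2 lists of the second batch thus held fewer of them than the 3 lists of the first. In long internal exons the shares were 80.8% in WT PP, 77.3% in A5-KO PP, 74.4% in hPSC, 61.2% in DE and 63.3% in hILO. In last exons all 5 shares lay between 70.0% and 75.1%. From PP, hPSC, DE and hILO differ in cell stage within one batch, WT PP in batch, and A5-KO PP in batch and in the ALKBH5 genotype, so these parts cannot be told apart over the 5 lists.

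Peaks shared by both protocols mostly recurred elsewhere. Of the shared PP peaks, 80.2% were in A5-KO PP, 73.8% in hPSC, 68.9% in DE and 69.1% in hILO, and 4.83% were in none of these 4. Of the PP peaks not shared with WT PP, 18.7% were in A5-KO PP, 43.3% in hPSC, 40.6% in DE, 48.7% in hILO and 31.1% in none. Unshared WT PP peaks showed the opposite side, with 42.4% in A5-KO PP, 20.5% in hPSC, 14.9% in DE, 14.8% in hILO and 45.8% in none. At the level of genes, 93.6% of genes in both lists had an A5-KO PP peak, against 37.5% of PP-only and 77.6% of WT PP-only genes. Of PP-only genes 65.9%, 61.7% and 67.9% had a peak in hPSC, DE and hILO, and of WT PP-only genes 43.5%, 38.8% and 34.2%. In all, 13493 PP peaks (46.4%) on 6829 genes (57.8% of PP genes) lay in WT PP and A5-KO PP too, and 7534 (25.9%) lay in all of the other 5 lists.

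The letters under the peaks also differed. DRACH occurred 23.8 times per kb in shared PP peaks and 19.6 times in PP-only peaks. Searching the antisense strand of the same peaks gave 15.9 and 16.6, so the ratio of strands was 1.5 and 1.18. In WT PP the density was 23.1 in shared and 21.0 in unshared peaks, with ratios of 1.41 and 1.30. At least 1 DRACH lay in 93.1% of shared PP, 83.4% of PP-only, 95.4% of shared WT PP and 88.6% of WT PP-only peaks. Among peaks of 100 to 200 nt the strand ratio stayed larger in shared peaks, at 1.55 against 1.33 in PP and 1.47 against 1.39 in WT PP. By exon, the lowest ratio in PP was that of unshared first-exon peaks, 1.19, and unshared peaks on short internal exons had 1.66 against 1.91 for shared ones. GGAC was denser on the transcript strand by 1.93 times in shared and 1.43 times in PP-only peaks.

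Which progenitor genes were marked in both protocols was read from lists of genes by role. Of 30 transcription factors of pancreatic progenitors, all had a peak in at least 1 list, 28 in both and 25 (83.3%) a PP peak shared with WT PP, beside 55.5% of all protein-coding genes with a peak. These genes carried many peaks, however. A shared peak lay in 3 of the 4 with 1 PP peak, 14 of the 16 with 2 to 4 and 8 of the 8 with 5 to 9, beside 44.8%, 80.5% and 95.6% of all genes with as many PP peaks, so for most of them the share was near that of genes with a like number of peaks. In 24 of the 25 a shared peak also lay in A5-KO PP, beside 87.2% of the 7050 protein-coding genes with a shared peak, the exception being RBPJ, the DNA-binding partner of Notch. When over 50% of both peaks had to be covered 20 genes remained, by a rule that uses positions alone, and 19 of the 20 were also among the 24. PDX1, NKX6-1, SOX9, MNX1, ONECUT1, ONECUT2, RFX6 and GATA4 were among those that remained, and FOXA3, HHEX and TEAD1 among those lost. The settings that use the columns of single rows lost other genes. With p below 1e-05, 14 genes remained, without MNX1 and ONECUT1 but with HHEX and TEAD1, and with a ratio of at least 3, 17 remained, without MNX1. In all, 11 genes kept a shared peak under each of the 6 settings, 4 of which read those columns, so which genes are robust depended on the setting. The 30 genes carried 98 PP peaks, of which 62 (63.3%) were shared, and 123 WT PP peaks, of which 36 (29.3%) were shared, beside 57.9% and 22.4% of all peaks.

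Most shared stretches of these genes lay in the 3UTR or at the end of the CDS. PDX1 had 4 PP and 2 WT PP peaks, and 3 of the PP peaks were shared. The first of them is the printed stretch of 175 nt in the CDS, and 500 nt and 225 nt peaks followed in the 3UTR, at chr13:27924711-27925210 and chr13:27925861-27926085. A single WT PP peak of 1825 nt over 2 exons covered the CDS stretch and the 500 nt peak. hPSC and DE had no PDX1 peak. NKX6-1 had 3 PP peaks, all shared, 2 of them in the 3UTR and covered by at least 95.5% by 1 WT PP peak of 875 nt at chr4:84492362-84493236. SOX9 had a PP peak of 875 nt and a WT PP peak of 800 nt over the end of the coding sequence and the 3UTR, which covered each other by 85.7% and 93.8%. A 75 nt PP peak in the CDS of SOX9 and a 275 nt WT PP peak in its 5UTR were each found once.

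HNF4A, a hepatocyte and endoderm factor, had 4 of 5 PP peaks shared, all along its 3UTR within chr20:44429805-44431804. GATA4, another endoderm factor, had 4 of 5 shared, 1 in the 5UTR and 3 in the 3UTR. Of the paralogs ONECUT1 and ONECUT2, the first had 1 of 6 PP peaks shared and the second 6 of 8. On ONECUT1 the other 5 PP peaks lay in the 5′ part of the gene and overlapped no WT PP peak, while 3 unshared WT PP peaks lay in the 3UTR. GLIS3 had 6 of 8, PROX1 5 of 7, MEIS2 4 of 7 and FOXA1 2 of 2 PP peaks shared. MNX1 had 1 of 4 shared, at the 5′ end, and its other 3 PP peaks, in the CDS and the 3UTR, overlapped no WT PP peak, although A5-KO PP peaks covered 2 of them fully.

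In 5 transcription factors no PP peak was shared. GATA6, which together with GATA4 drives pancreas formation, had 2 peaks in each list and none that overlapped. HNF4G had 1 peak in each, on different parts of the CDS. TCF7L2, the Wnt effector, had 3 PP and 7 WT PP peaks, and the only overlap covered 50% of the PP peak, just at the limit. PTF1A, which directs the acinar and early progenitor program, and NKX6-2 had 1 WT PP peak each and no PP peak.

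**Figure D3:**
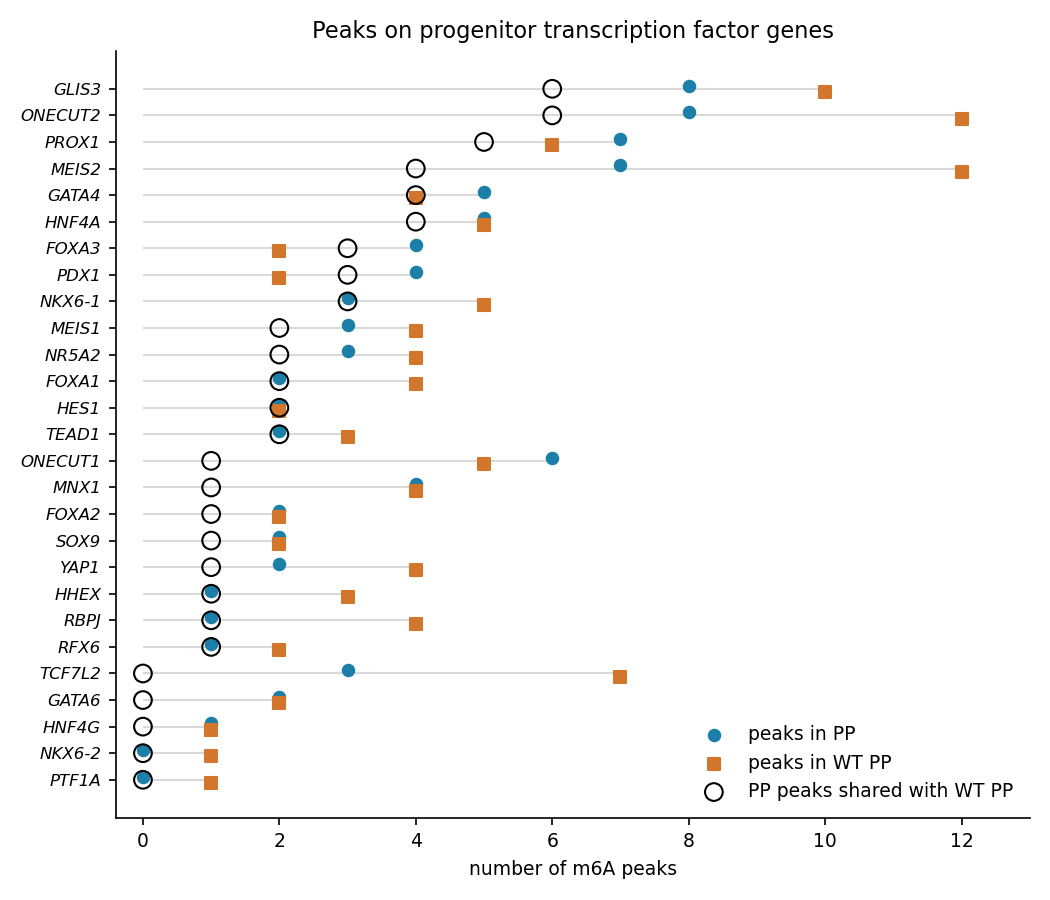
Number of m6A peaks on 27 of the 30 progenitor transcription factor genes in PP (filled circles) and WT PP (squares), with the number of PP peaks that were shared (open circles). Symbols at the same count overlap. Of the genes plotted 22 had a shared peak, ONECUT2 and GLIS3 the most with 6, and TCF7L2, GATA6, HNF4G, NKX6-2 and PTF1A had none.

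Genes of the Notch pathway, which keeps progenitors undifferentiated, gave a like count. Of 26 listed, 23 had a peak in either list, 22 in both (95.7%) and 19 (82.6%) a shared one, beside 68.3% and 55.5% of protein-coding genes, and 45 of 60 PP peaks were shared, beside 57.9% of all. By number of PP peaks, 5 of 7 genes with 1 and 12 of 13 with 2 to 4 had a shared one, beside 44.8% and 80.5% of all genes. Among ligands JAG1, JAG2, DLL1 and DLL4 had a shared peak. Among receptors NOTCH1 had 1 of 4 PP peaks shared, NOTCH2 4 of 5 and NOTCH4 2 of 2, and NOTCH3 had none of 2. The coactivators MAML1, MAML2 and MAML3 had all of their 4, 4 and 10 PP peaks shared, while NUMB and NUMBL, inhibitors of Notch, had a peak in each list but none shared. The target HES1 had both of its PP peaks shared, 1 in the 5UTR and 1 in the 3UTR.

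Receptors and targets of the signals in the medium gave 24 genes with a shared peak among 39 with a peak (61.5%), of 43 listed, near the 55.5% of all protein-coding genes with a peak. For EGF, EGFR had 4 of 5 PP peaks shared, whereas ERBB3 and ERBB4 had 5 and 6 WT PP peaks and none in PP. FGFR2, which binds KGF, had 2 of 3 shared. For retinoic acid, RARA had 2 of 2, RARB 1 of 1 and RXRA 2 of 3 shared, CYP26B1, which degrades it, had 2 PP peaks and none in WT PP, and CYP26C1 the reverse. For Hedgehog, the receptor PTCH1 had 5 of 5 shared and SMO 1 of 1, while GLI2 had none of 3 and GLI3 none of 6 shared by this rule. For BMP, BMPR2 had 6 of 7, SMAD1 3 of 3 and ID2 3 of 3 shared, while BMPR1B had 1 of 3, ID1 1 of 2 and SMAD4 none of 1, and ID3 had 2 WT PP peaks and none in PP.

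The m6A machinery itself was marked throughout. All 18 listed genes had peaks in both lists and 16 (88.9%) a shared one, beside 68.3% and 55.5% of protein-coding genes, and 56 of 76 PP peaks were shared (73.7%, beside 57.9% of all). By number of PP peaks, 9 of 9 genes with 2 to 4 and 7 of 7 with 5 to 9 had a shared one, beside 80.5% and 95.6% of all genes. The 2 genes with 1 PP peak had none shared, beside 44.8%. Of the writers, METTL14 had 3 of 3, VIRMA 7 of 8 and WTAP 3 of 4 PP peaks shared. METTL3, the catalytic subunit, had 1 PP and 2 WT PP peaks that did not overlap. Both erasers had shared peaks, ALKBH5 3 of 3 and FTO 2 of 3. Among readers YTHDF3 had 7 of 7 and YTHDC1 5 of 6, and IGF2BP1 had 1 PP peak, 33.3% covered by WT PP.

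Lists of genes of other cell types gave the following counts, beside 68.3% in both lists and 55.5% with a shared peak for all protein-coding genes with a peak. Of 16 endocrine genes, 8 had a peak in either list, 2 in both and only RFX3 a shared PP peak. NEUROD1, NKX2-2 and INSM1 had PP peaks alone, ISL1 and MAFA were among those with WT PP peaks alone, and CHGA had 3 peaks in each list, with 1 WT PP but no PP peak passing the rule. The hormone genes INS, GCG and SST had no peak in either list and had peaks in hILO. POU5F1, NANOG and SOX2, the pluripotency factors, had none in either list. Of 15 genes of definitive endoderm and pluripotency, 9 had a peak, 4 in both and 4 shared, among them SALL4 with 6 of 6 PP peaks shared. SOX17, CER1, MIXL1 and LHX1 had peaks in WT PP and none in PP, and LIN28A had 1 in PP and none in WT PP. Of 12 hepatic and intestinal genes 9 had a peak, 3 in both lists, and the other 6 in WT PP only, including AFP, TTR, FGB and SERPINA1. APOB had 13 WT PP peaks and 1 PP peak, which was shared. Of 11 mesenchymal genes 8 had a peak, 5 in both and 3 shared, and COL3A1 had 9 PP peaks and none in WT PP, whereas PDGFRB and THY1 had 1 WT PP peak each and none in PP. These marker counts moved with the list, and their part in the differences between protocols was not tested.

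Among 17 abundant lncRNAs, 13 had a peak, 8 in both (61.5%) and 7 shared (53.8%), beside 31.4% and 22.7% of all lncRNA genes with a peak. By number of PP peaks, 1 of 2 genes with 1, 3 of 4 with 2 to 4, 1 of 1 with 5 to 9 and 2 of 2 with 10 or more had a shared one. Of all genes with as many PP peaks, 44.8%, 80.5%, 95.6% and 99.3% had one. Over these few genes the share was thus near that of genes with a like number of peaks. MALAT1 had 4 of 4 PP peaks shared, all within chr11:65499013-65500762, and 11 WT PP peaks that reached to chr11:65506137. TUG1 had 8 of 10 shared, but the annotation used here placed it among protein-coding genes and not in that lncRNA class. KCNQ1OT1, an antisense transcript over an imprinted locus, had 7 PP and 52 WT PP peaks, and NEAT1 4 PP and 2 WT PP peaks, of which no PP peak passed the rule. MEG3 had 4 peaks in WT PP, 4 in A5-KO PP and none in PP, hPSC or DE.

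Genes of one list were named by the reads on their rows, an order that the limit of the count columns touches, so only their peaks are given. In PP only, they were EEF2, the translation elongation factor, with 3 peaks, PTMA, prothymosin alpha, with 4, COL5A3 with 4, PRKCSH with 5 and HDAC5 with 2. Each of these 5 genes had peaks in hPSC and hILO, and PTMA had 6, 5 and 5 in hPSC, DE and hILO. EEF2 and PTMA also had 1 A5-KO PP peak each, while COL5A3, PRKCSH and HDAC5 had none. Rows of EEF2 also list SNORD37, and rows of PTMA MIR1244-1 or U4. The lncRNA genes were FAM226B, RBM25-AS1, LINC00461, which lists MIR9-2 with it, and ENSG00000257322 and ENSG00000282849. Of these, FAM226B, LINC00461 and ENSG00000257322 had 1, 3 and 4 A5-KO PP peaks. LINC00461 had none in hPSC, DE or hILO. In WT PP only, they were AJM1 with 7 peaks, CCDC141 with 5, CDKN1A, a cell cycle inhibitor, with 1, CATSPERE with 3 and SP6 with 4. All 5 had A5-KO PP peaks, with 9 on AJM1. All but CDKN1A also had a peak in hPSC, DE or hILO, such as CCDC141 with 3 in hPSC and 3 in DE. The WT PP-only lncRNAs were SNHG30, whose single peak also lists SNORD7, LINC01854, PWRN1 with 11 peaks and 23 in A5-KO PP, ENSG00000277369 and ZNNT1. SNHG30 had no A5-KO PP peak and 1 in hPSC. H3C10, H2AC11 and H4C8 were among the 4 histone genes of PP only, and H2AC15, H3C6 and H4C3 among the 12 of WT PP only.

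Most peaks in small RNAs belonged to the second batch. Peaks lying in a small RNA numbered 8 in PP, with 1 in an snRNA, and 58 in WT PP, with 43 in snRNAs and 4 in rRNAs. A5-KO PP had 58, with 36 in snRNAs, while hPSC, DE and hILO had 20, 13 and 14, with 2, 0 and 2 in snRNAs. WT PP examples were RNA5-8SN3 at chr21:8395607-8395731, RNA5S9 at chr1:228628148-228628247 and the U6 gene RNU6-1 at chr15:67839939-67840038, the only one of 19 listed structured RNAs with a peak in either list. These genes have many near-identical copies and 1 alignment was kept per read, so the copy that carries a peak is uncertain. In the second batch rRNA was also removed from the input alone. IP over input on the 4 rRNA peaks of WT PP therefore cannot be read as methylation, and its source was not tested.

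Enrichment was compared last and only as a description. Over the 16826 shared pairs, the deposited log2 enrichment was larger in WT PP by a median of 2.14, with quartiles of 0.74 and 3.44, and by at least 1 in 71.3% of pairs. Computed from the deposited counts with 1 added, the median difference of log2 ratios was −0.19, and −0.023 after each list was centered on its median. The list medians were 1.64 in PP and 3.65 in WT PP for the deposited enrichment, and 2.20 and 2.03 for the ratio of counts. The lists were scaled separately and the sign depended on the measure, so no direction is given.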

How the data were processed

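m6A-seq peaks of PP and WT PP, each from 2 IP and 2 input libraries, were analysed from the lists that the authors deposited. The authors used fastp for trimming and HISAT2 for alignment to GRCh38, where each read kept 1 alignment. Peaks were called with exomePeak2, and 1 list per population was deposited. How the libraries were combined, and whether counts are sums or means over them, is not given in the sources used here. Deposited per peak were read counts of IP and input, a log2 enrichment and a raw and adjusted p-value. The methods state p below 1e-05 and an enrichment of no less than 1.5 times over input, but the deposited lists were limited by an adjusted p-value below 0.05, and 61.8% of PP and 54.3% of WT PP peaks had p below 1e-05. Library totals were not used here, and depth is described by reads inside peaks.

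Spans were reduced to the exons of their genes in GENCODE release 44 on GRCh38, on the same strand, with python 3.11.15, pandas 2.3.3, numpy 2.4.6, scipy 1.17.1 and pysam 0.24.0. A peak over several genes was assigned to the one with most exonic bases in it. Sharing required over 50% of the exonic length to be covered. The code was tested on simulated data with known overlaps. Named genes were those of 10 lists, the 5 with most shared PP peaks, the 5 protein-coding and 5 lncRNA genes with most IP reads in each one-list set, and 3 histone genes per list. A few of these genes are not reported here. Members and lists were chosen with earlier results of these data known.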

Additional observations from a re-analysis of the deposited data

How the results depend on the processing

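Shares moved with the settings, and the limits are of 2 kinds. Of the settings that use positions, the genomic span with introns left the shares at 57.7% and 22.0%, and the others asked for less or more overlap than reported or for other widths. With any overlap of at least 1 nt the share was 63.3% of PP and 35.5% of WT PP peaks, with over 50% of both peaks covered 24.3% and 16.4%, and with the midpoint inside a peak of the other list, a setting chosen after seeing the data, 58.9% and 26.2%. Among peaks of 100 to 200 nt, also chosen after seeing the data, they were 52.5% and 13.4%. Settings that select by p, ratio or reads use columns that did not follow the positions over much of the lists. For p below 1e-05, a ratio of at least 3, at least 10 input reads, and lists held to one size by smallest p, in this order, PP peaks were shared in 36.9%, 52.6%, 47.2% and 41.4%, WT PP peaks in 16.4%, 12.9%, 21.9% and 23.8%, and genes were in both lists in 49.3%, 46.9%, 56.8% and 56.6%. The lncRNA share of PP-only genes was 24.6% for p below 1e-05, 31.3% for 10 input reads and 29.2% for lists of one size, and that of WT PP-only genes 21.4%, 21.0%, 23.9% and 26.1% under the 4 settings, so PP-only genes kept the larger share under each of the 4.

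The CDS share of PP-only peaks was 58.0% for p below 1e-05 and 58.0% for a ratio of at least 3, 59.2% for 10 input reads, 57.6% for lists of one size, 66.7% when any overlap with the CDS counted and 62.1% at 100 to 200 nt. For shared PP peaks it was 54.2% for p below 1e-05, 63.7% with any CDS overlap and 51.2% at 100 to 200 nt, and for shared WT PP peaks 55.2%, 71.8% and 56.1%, with 55.0% for a ratio of at least 3. For WT PP-only peaks it was 48.2% for p below 1e-05, 48.3% for a ratio of at least 3, 56.1% with any CDS overlap and 46.5% at 100 to 200 nt. With any CDS overlap the order of shared WT PP and PP-only peaks turned. Of the progenitor transcription factors 14 kept a shared peak for p below 1e-05, and 17, 24 and 19 under the other 3 settings, with 20 for both peaks covered and 26 for any overlap.

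The median difference of deposited log2 enrichment, WT PP minus PP, was 2.67 for p below 1e-05, 2.22 for a ratio of at least 3, 2.05 for 10 input reads, 2.77 for lists of one size and 2.08 for both peaks covered. With the log2 ratio of counts it was −0.023 centered, with an interval of −0.051 to 0.0028 that spans 0. Not centered, a setting chosen after seeing the data, it was −0.19. Of 68 values, 50 moved beyond their counting interval (for counts of genes, beyond 1.5 times), 16 did not and 2 changed sign. No paired analysis was possible because each population has 1 list with no values per library, and leaving out a replicate was not possible for the same reason.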
